A study of Mus musculus with 9 samples.

Results

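Integrins are the receptors that hold epithelial cells to their matrix, and laminins are the main adhesive proteins of the basement membrane beneath them. All genes of the mouse integrin subunits and laminin chains were taken by symbol from a table of 27179 genes, which gave 38 members: 18 integrin alpha genes, 9 integrin beta genes and 11 laminin genes. The symbol rule uses no measured value, but it was set with earlier results of these data known. An integrin is made of an alpha and a beta subunit, and the pairing sets which ligand is bound: the alpha 3 and alpha 6 subunits form laminin receptors, alpha 1, alpha 2, alpha 10 and alpha 11 form collagen receptors, and alpha 5, alpha 8 and alpha v recognise the RGD motif of proteins such as fibronectin. A laminin is a trimer of an alpha, a beta and a gamma chain, named by its chains, so that laminin 511 holds alpha 5, beta 1 and gamma 1. In the mammary gland luminal cells face the lumen, myoepithelial cells and the basement membrane surround them, and integrin contact with laminin is known to be needed for milk production and for the behaviour of progenitor cells.

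RNA was sequenced from luminal epithelial cells sorted from mammary glands of adult mice, in 3 populations of 3 libraries each. HR- LP cells were sorted as Lin-, CD14+ and PR-cre/YFP-, HR+ LP cells as Lin-, CD14+ and PR-cre/YFP+, and ML cells as Lin- and CD14-, where CD14 is a surface receptor for bacterial products and YFP reports cells with a history of PR-cre, a Cre named for the progesterone receptor. The ML libraries are called YFP+ in their own labels and YFP- in the design text of the series, and the sample labels were followed here. No treatment was named, and strain, exact age, pooling of animals and any integrin antibody in the sort are not given in the sources used here.

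The libraries held 27219103 to 108119756 counts. The gate gene Cd14 averaged 1114, 324 and 24.7 CPM in HR- LP, HR+ LP and ML, and Pgr, the progesterone receptor gene, 9.42, 279 and 435 CPM, where CPM is counts relative to a common library total after TMM scaling of library size. The 6 luminal markers summed to between 12885 and 17241 CPM in every library. By edgeR at an adjusted p below 0.05, 1 rose and 2 fell in HR+ LP against HR- LP. From HR+ LP to ML 0 changed, and in ML against HR- LP 2 rose and 2 fell. Of all tested genes 17.2% rose and 12.8% fell in the first comparison, 0.0943% and 6.70% in the second and 23.3% and 21.3% in the last. Epcam, which fell, averaged 3514, 1884 and 1322 CPM. Of 13 leukocyte markers 12 averaged under 1 CPM in each population, and the pan-leukocyte gene Ptprc did not exceed 0.537 CPM in any library. The 12 basal and myoepithelial markers summed to 60.6 to 105 CPM in HR- LP, 40.1 to 60.0 CPM in HR+ LP and 35.6 to 55.5 CPM in ML, with none listed at 0 throughout a population. The HR- LP libraries differed among themselves in several members, with replicate 1 lowest in Itga2, Itga5, Lama3 and Lama5 and replicate 3 highest in Itgav, and member counts are given without each of them.

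The sequences shown are upstream bases of members called in ML against HR- LP with a population mean above 10 CPM, where RefSeq lists a single start with these bases wholly outside the gene. Only 1 riser and 3 fallers met this, and the riser is set beside the 2 largest of these fallers. They show the region before the start of genes that moved in opposite directions. Each run is the 250 bases before the annotated start, written 5′ to 3′ in build GRCm38.p6, and capitals mark the GC box GGGCGG on either strand. All of them lie on the minus strand. The first belongs to Itga5, which rose, and the others to Itgb8 and Itga2, which fell.
Itga5, chr15:103366792-103367041: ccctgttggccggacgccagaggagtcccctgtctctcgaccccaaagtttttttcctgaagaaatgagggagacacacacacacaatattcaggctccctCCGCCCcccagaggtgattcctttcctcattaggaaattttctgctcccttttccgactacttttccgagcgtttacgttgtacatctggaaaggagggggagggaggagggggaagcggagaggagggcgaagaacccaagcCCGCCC
Itgb8, chr12:119238277-119238526: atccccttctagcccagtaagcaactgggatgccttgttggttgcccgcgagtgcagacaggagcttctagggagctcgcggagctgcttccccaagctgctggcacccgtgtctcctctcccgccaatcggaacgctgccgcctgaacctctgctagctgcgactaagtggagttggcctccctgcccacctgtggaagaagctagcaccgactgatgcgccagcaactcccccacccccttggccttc
Itga2, chr13:114932101-114932350: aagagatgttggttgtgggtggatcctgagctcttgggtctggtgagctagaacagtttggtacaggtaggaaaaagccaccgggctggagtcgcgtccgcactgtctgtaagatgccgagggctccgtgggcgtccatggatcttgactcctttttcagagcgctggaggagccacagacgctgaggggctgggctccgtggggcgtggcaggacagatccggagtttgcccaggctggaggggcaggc
The Itga5 window held 2 GC boxes, from 149 to 144 and from 6 to 1 bases before the start, and the Itgb8 and Itga2 windows held none. A share of 32.7% of the 32851 promoters listed there held a GC box, and of 27 entries for 24 members 9 did (33.3%). Further motifs were searched on both strands, and these can overlap one another: TGANTCA of AP-1 factors, TTCNNNGAA of STAT factors, TGTTTNC of forkhead factors, TGTGGT of RUNX factors and CCGGAAG of ETS factors. None of these was in the windows printed above. They were present in 1, 2, 5, 2 and 1 of the 27 member entries, and in 6.75%, 7.02%, 17.8%, 14% and 6.91% of all promoters.

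Of the 38 members, 34 had enough counts to be tested: 24 integrin genes and 10 laminin genes. Itga4, Itgax and Lamc3 were left out, with no library above 0.235, 0.323 and 0.502 CPM, and Itgad had no count in any library. In HR+ LP against HR- LP, 7 of the tested members rose and 9 fell at an adjusted p below 0.05. These are 20.6% and 26.5% of the tested members, where 17.2% of 15910 tested genes rose and 12.8% fell. From HR+ LP to ML 0 members rose and 8 fell (23.5%), where 0.0943% and 6.70% of all tested genes did. Between the ends, ML against HR- LP, 8 members rose (23.5%) and 12 fell (35.3%), beside 23.3% and 21.3% of all tested genes. The median log2 fold change of the members was -0.44, -0.00 and -0.37 in these 3 comparisons, and that of all tested genes 0.01, 0.01 and 0.03. Without HR- LP replicate 1 the members that rose and fell numbered 7 and 10, 0 and 9, and 8 and 12. Without replicate 2 they numbered 8 and 6, 0 and 8, and 8 and 11, and without replicate 3 they numbered 8 and 8, 0 and 8, and 8 and 12. In HR+ LP against HR- LP, 2731 and 2033 of all 15910 tested genes rose and fell with every library kept. Without replicates 1, 2 and 3 these were 3222 and 2290 of 16511, 2567 and 1599 of 16332, and 2651 and 1975 of 16551. For the 0 members that rose from HR+ LP to ML by edgeR, DESeq2 and limma voom also gave 0, and none had an unadjusted p under 0.05. The comparisons share libraries, so their counts are not independent of each other.

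**Figure D1:**
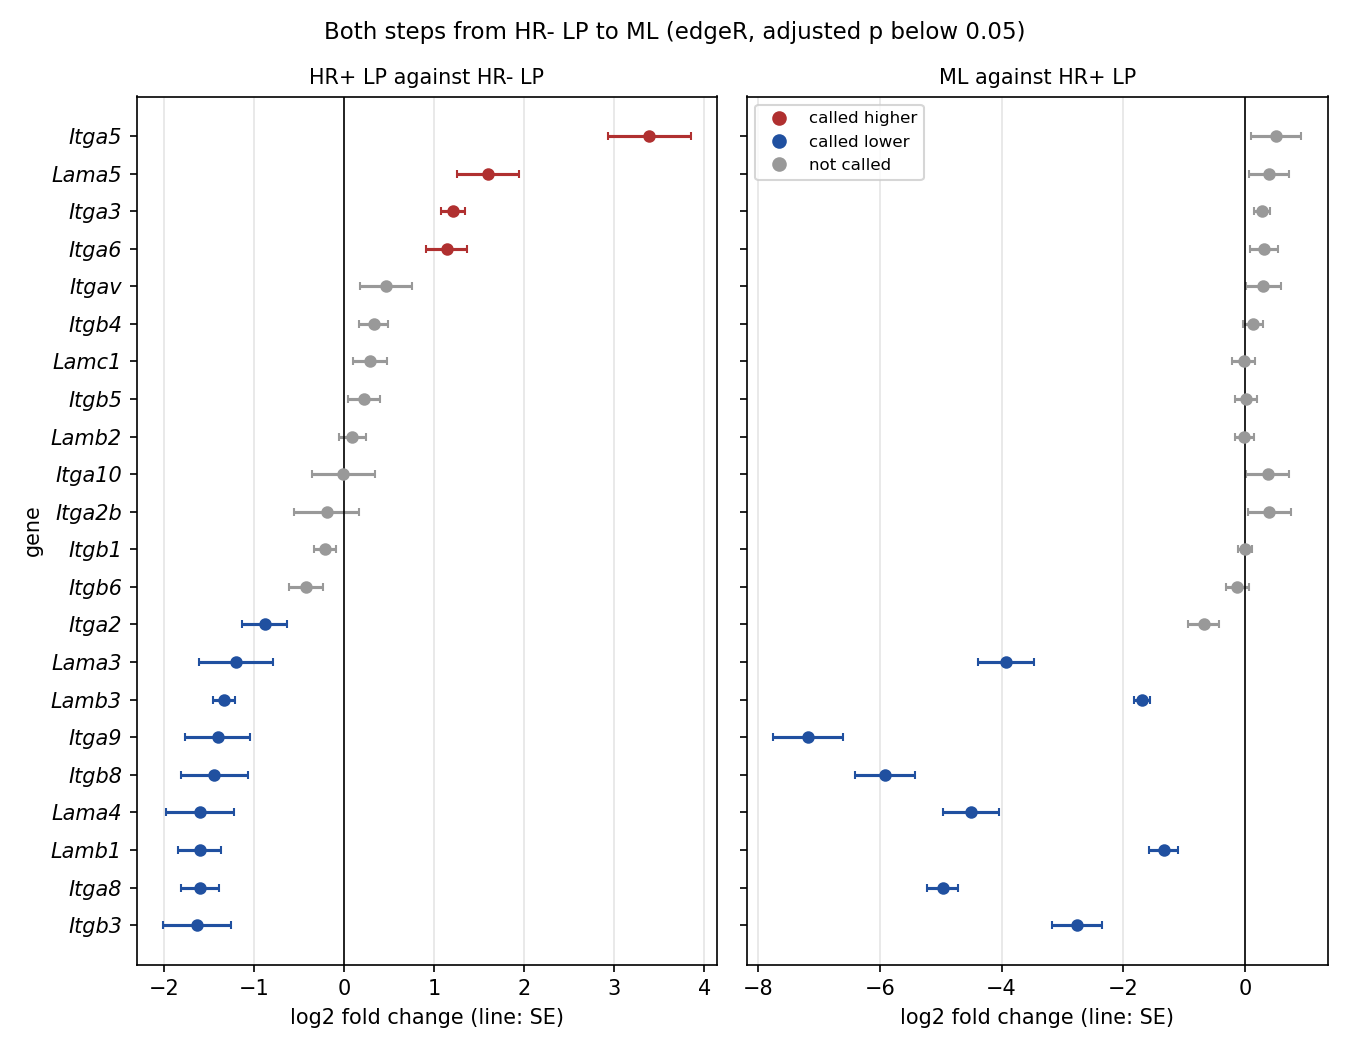
Log2 fold change of 22 members whose highest population mean was at least 5 CPM, at each step from HR- LP to ML, with the SE as a line and the call as a colour. In the left panel 4 of the genes shown are called higher and 9 lower, and in the right panel 8 are called lower and 0 higher.

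Both main alpha subunit genes of the laminin receptors were higher in HR+ LP and ML than in HR- LP. Itga3, which encodes the alpha 3 subunit, stood at 65.6, 86.4 and 73.6 CPM in HR- LP, at 162, 174 and 188 CPM in HR+ LP and at 207, 210.3 and 217 CPM in ML. No library of one population overlapped another. Itga3 rose by 1.21 in log2 fold change, the scale of all changes below (SE 0.13, adjusted p = 8.06e-05) in HR+ LP over HR- LP, and by 1.49 (SE 0.14, adjusted p = 5.91e-06) in ML over HR- LP. Itga6, the gene of the alpha 6 subunit known as CD49f and used as a surface marker of mammary populations, stood at 94.7, 136 and 190.3 CPM, then 268, 299 and 361 CPM, then 331, 397 and 425 CPM. The HR- LP libraries of Itga6 lay below all others, while those of HR+ LP and ML overlapped. Itga6 rose by 1.14 (SE 0.23, adjusted p = 0.00389) at the first step, and its further log2 difference of 0.31 in ML (SE 0.23, adjusted p = 0.722) was not called. In ML over HR- LP it rose by 1.45 (SE 0.23, adjusted p = 0.000432).

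Itgb4, which encodes the partner of alpha 6 in hemidesmosomes, moved less. Its levels were 75.2, 116 and 93.7 CPM in HR- LP, 116, 131 and 113 CPM in HR+ LP and 123, 142 and 129 CPM in ML. The first 2 populations overlapped, and the log2 difference was 0.33 (SE 0.16, adjusted p = 0.147). In ML against HR- LP Itgb4 was called higher by 0.47 (SE 0.16, adjusted p = 0.0351). That call was lost in 8 of 17 alternative analyses, with adjusted p values of 0.0509 to 0.132, among them leaving out HR- LP replicate 1 or 3, HR+ LP replicate 1 or 3, or any ML replicate. Without HR- LP replicate 2 the first step was called too (0.51, adjusted p = 0.0346). Per kilobase of the deposited gene length, the ratio of Itga6 to Itgb4 was 1.85, 1.71 and 2.98 in HR- LP, 3.39, 3.36 and 4.69 in HR+ LP and 3.95, 4.09 and 4.82 in ML. The ratios of the HR- LP libraries were below all others (exact two-sided permutation p = 0.1 against either population, the smallest that 3 against 3 libraries can give). Itga7, the gene of another laminin-binding subunit known from muscle, averaged 3.37, 1.92 and 1.64 CPM and was not called in any comparison.

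Itgb1 encodes the beta subunit shared by most of these receptors and was the most abundant beta gene per kilobase in every library. It stood at 493, 519 and 505 CPM in HR- LP, 425, 427 and 461 CPM in HR+ LP and 405, 449 and 463 CPM in ML. Every HR- LP library was above the others by a small margin, and the log2 differences of -0.21 (SE 0.12, adjusted p = 0.22) and -0.20 (SE 0.12, adjusted p = 0.193) were not called. Of the summed level per kilobase of the 9 beta genes, Itgb1 made up 56.3%, 54.7% and 56.9% on average. The alpha genes beside it were redistributed. Itga6 made up 28.5% ± 2.20 (SD, n = 3) of the summed level per kilobase of the 18 alpha genes in HR- LP, 42.2% ± 1.57 in HR+ LP and 44.9% ± 1.96 in ML. The share of Itga3 was 13.9% ± 3.34, 20.8% ± 1.26 and 21.6% ± 1.65. For both genes the shares of the HR- LP libraries lay below all others.

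**Figure D2:**
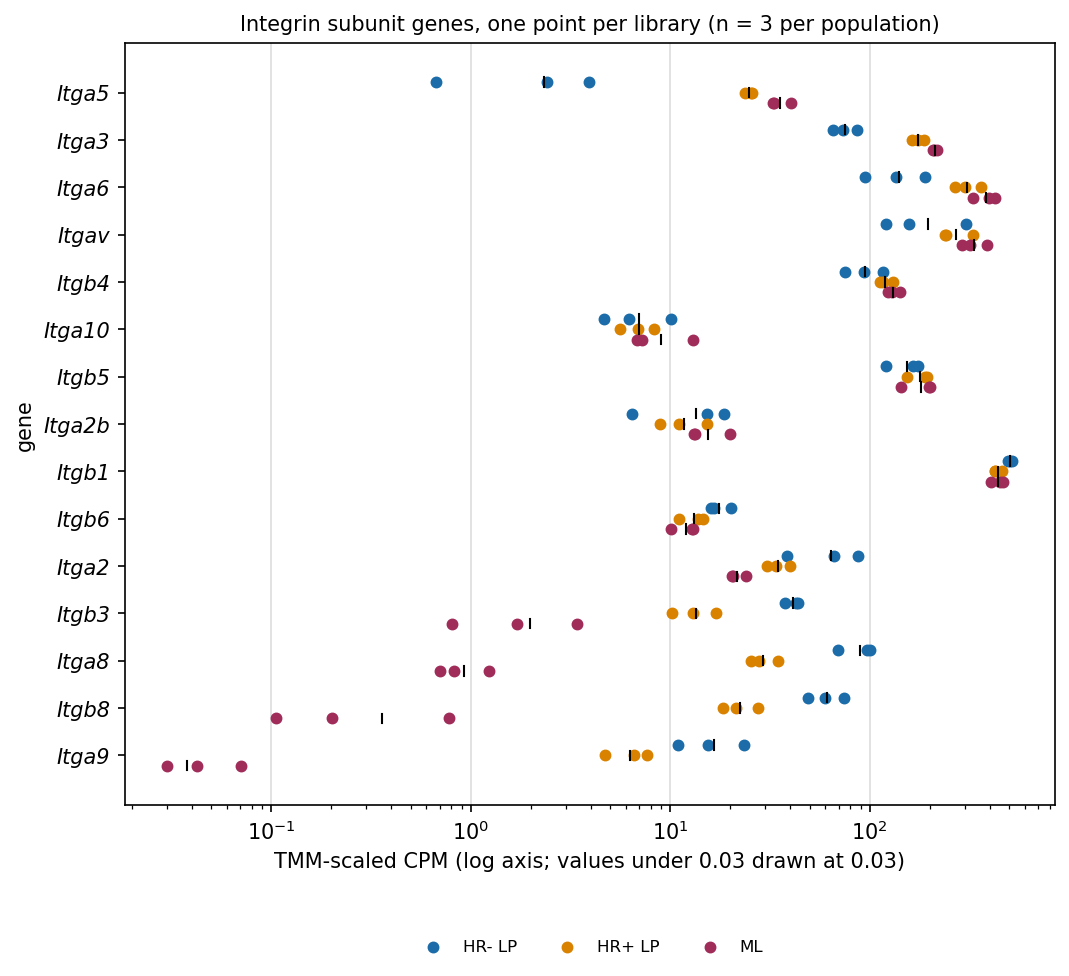
TMM-scaled CPM on a log axis of the 15 integrin genes whose highest population mean was at least 5 CPM, with one point per library, 3 libraries per population and a black tick at each mean, ordered by the ratio of ML to HR- LP. Itga5 is at the top, where HR- LP points lie at 0.666 to 3.91 CPM and ML points at 32.7 to 40.4 CPM, and Itga8, Itgb8 and Itga9 are at the bottom, where ML points lie at or under 1.23 CPM.

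The receptors of RGD ligands did not move as a block. Itga5, which encodes the alpha 5 subunit of the fibronectin receptor, had the largest rise among members above 10 CPM. It stood at 0.666, 3.91 and 2.40 CPM in HR- LP, 23.7, 25.4 and 25.6 CPM in HR+ LP and 32.7, 33.0 and 40.4 CPM in ML. The 3 populations did not overlap. Itga5 rose by 3.39 (SE 0.46, adjusted p = 0.000306) at the first step and stood 3.90 (SE 0.47, adjusted p = 4.98e-05) above HR- LP in ML. The difference of 0.51 between ML and HR+ LP was not called (adjusted p = 0.771), except when those groups were fitted alone (adjusted p = 0.0299). The 8 endothelial markers summed to 9.36 to 18.5, 106 to 122 and 137 to 163 CPM over the same populations. Their sum rested on Eng, a co-receptor of TGF-beta ligands, at 5.32, 112 and 146 CPM on average. The endothelial genes Pecam1 (3.39, 2.50 and 3.37 CPM) and Cdh5 (0.592, 0.690 and 0.558 CPM) were low in all populations. The part of endothelial cells in the Itga5 result was not tested.

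Itga8 ran the other way. This gene of the alpha 8 subunit, which pairs with beta 1 and binds nephronectin, stood at 69.4, 96.8 and 100.4 CPM in HR- LP, 27.9, 25.3 and 34.7 CPM in HR+ LP and 0.703, 1.23 and 0.824 CPM in ML. The populations were apart at both steps. Itga8 fell by 1.60 (SE 0.21, adjusted p = 0.000261) and then dropped by 4.97 (SE 0.26, adjusted p = 6.75e-07), and between the ends the fall was 94.7-fold (log2 fold change -6.57, SE 0.27, adjusted p = 3.59e-08). Its share of the alpha genes per kilobase was 13.5% ± 1.61, 2.91% ± 0.213 and 0.0786% ± 0.0237 (SD, n = 3). Npnt, the nephronectin gene and no member of these families, moved against it, at 4.30, 6.57 and 3.15 CPM in HR- LP, 29.5, 18.7 and 20.8 CPM in HR+ LP and 39.3, 21.2 and 28.5 CPM in ML. Npnt rose by 2.28 (SE 0.32, adjusted p = 0.000383) at the first step.

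Itgav encodes the alpha v subunit, which pairs with beta 1, beta 3, beta 5, beta 6 or beta 8. Its libraries spread widely in HR- LP, at 121, 158 and 305 CPM, beside 241, 239 and 329.6 CPM in HR+ LP and 291, 317 and 388 CPM in ML. The log2 difference of 0.47 at the first step was not called (SE 0.29, adjusted p = 0.261), nor was that of 0.77 between ML and HR- LP (SE 0.30, adjusted p = 0.0543). Without HR- LP replicate 3, the highest of its group, both were called, at 0.95 (adjusted p = 0.00679) and 1.25 (adjusted p = 0.000793). The first step was called in 2 of 17 alternatives and ML against HR- LP in 6 of 17. With every library kept, the latter was called by DESeq2 (adjusted p = 0.0351), by limma voom (0.0182) and with a replicate block (0.00306), among others. The beta partners of alpha v fell into different patterns.

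Itgb3 and Itgb8 fell at both steps. Itgb3, whose subunit forms the vitronectin receptor with alpha v and whose product CD61 is a marker of mammary luminal progenitors, stood at 42.9, 43.9 and 37.4 CPM, then 13.0, 10.2 and 16.9 CPM, then 1.71, 0.808 and 3.41 CPM. Itgb3 fell by 1.63 (SE 0.38, adjusted p = 0.00813) and by 2.76 (SE 0.41, adjusted p = 0.00113), with no overlap of the populations, and fell by 4.39 (SE 0.44, adjusted p = 1.17e-05) between the ends. Itgb8, whose subunit binds latent TGF-beta, stood at 48.9, 74.3 and 59.5 CPM, then 27.5, 18.3 and 21.4 CPM, then 0.201, 0.106 and 0.777 CPM. The ML libraries held 6, 5 and 33 Itgb8 counts. Itgb8 fell by 1.44 (SE 0.37, adjusted p = 0.0126) and by 5.92 (SE 0.49, adjusted p = 1.30e-05), and fell by 7.37 (SE 0.51, adjusted p = 8.72e-07) between the ends. Without HR+ LP replicate 2 the first of these was not called (-1.31, adjusted p = 0.0651).

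The other partners of alpha v differed little. Itgb5, a vitronectin receptor subunit, ranged from 121 to 174, 153 to 194 and 143 to 200.2 CPM, with log2 differences of 0.22 (SE 0.18) and 0.01 (SE 0.18) at the steps, neither called. Itgb6, an epithelial subunit that also binds latent TGF-beta, stood at 20.1, 16.1 and 16.5 CPM, then 14.6, 11.1 and 13.8 CPM, then 10.1, 13.0 and 12.9 CPM. The HR- LP libraries of Itgb6 lay above all others. Only ML against HR- LP was called for Itgb6, with a fall of 0.55 (SE 0.19, adjusted p = 0.0407), and this call was lost in 10 of 17 alternatives. Leaving out HR- LP replicate 1, HR+ LP replicate 1 or 3, or any ML replicate was enough to lose it (adjusted p of 0.0602 to 0.143).

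Among the collagen receptor genes Itga2 had the highest mean level per kilobase in each population. It encodes the alpha 2 subunit CD49b, also a surface marker of luminal progenitors, and stood at 38.7, 87.7 and 66.1 CPM in HR- LP, 40.0, 30.6 and 33.9 CPM in HR+ LP and 23.9, 20.4 and 20.6 CPM in ML. The first 2 populations overlapped through HR- LP replicate 1, and the ML libraries lay below all others. Itga2 fell by 0.88 (SE 0.25, adjusted p = 0.0214) at the first step and by 1.57 (SE 0.26, adjusted p = 0.000477) in ML against HR- LP. The first call was lost without HR- LP replicate 2 (adjusted p = 0.0864), HR+ LP replicate 2 (0.0906) or HR+ LP replicate 3 (0.066). The difference of -0.68 between ML and HR+ LP was not called (adjusted p = 0.201), but was without HR- LP replicate 1 (adjusted p = 0.0224). Itga10 averaged 6.97, 6.94 and 8.98 CPM, and Itga1 and Itga11 did not exceed 1 CPM in any library. None of these 3 was called, and 33.5% of the exon bases of Itga10 are shared with an overlapping gene model, so its counts are uncertain.

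Itga9 had the largest fall of all members. Its subunit pairs with beta 1 and binds tenascin-C, osteopontin and other ligands. It stood at 10.9, 23.4 and 15.5 CPM in HR- LP and 4.71, 7.64 and 6.57 CPM in HR+ LP, and the ML libraries held 0, 2 and 3 counts, at most 0.0706 CPM. Itga9 fell by 1.40 (SE 0.36, adjusted p = 0.0139) at the first step, and from HR+ LP to ML by 7.18 (SE 0.57, adjusted p = 8.60e-06). In ML against HR- LP its log2 fold change was -8.58 (SE 0.58, adjusted p = 6.94e-07). The first call was lost without HR- LP replicate 2 (-1.06, adjusted p = 0.0633) or HR+ LP replicate 1 (-1.22, adjusted p = 0.0647). Of its ligands, the osteopontin gene Spp1 averaged 3.59, 1.61 and 0.0294 CPM and had a log2 fold change of -5.84 from HR+ LP to ML (SE 0.84, adjusted p = 0.000852). The tenascin-C gene Tnc averaged 8.08, 2.53 and 1.73 CPM, and fell by 2.21 (SE 0.64, adjusted p = 0.0164) in ML against HR- LP. Both ligands are named because they bind this receptor, a choice made after their values were seen.

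None of the leukocyte integrin genes averaged above 5 CPM in a population, and those called differed in direction. Itgal and Itgam encode the alpha L and alpha M subunits, which pair with beta 2 on leukocytes. Itgal stood at 0, 0.481 and 0 CPM in HR- LP, 1.83, 1.62 and 3.75 CPM in HR+ LP and 2.65, 2.72 and 4.87 CPM in ML. Itgal rose by 3.67 at the first step (SE 1.11, adjusted p = 0.0281), a call lost without HR+ LP replicate 1 (adjusted p = 0.0518), 2 (0.0509) or 3 (0.0857), and stood 4.18 above HR- LP in ML (SE 1.13, adjusted p = 0.0112). Itgam had no count in the HR- LP libraries, 68, 52 and 98 counts in HR+ LP and 19, 63 and 46 counts in ML. Against a limit of 3 counts over the HR- LP group, Itgam was at least 49.3-fold higher in HR+ LP (adjusted p = 0.0014) and at least 59.6-fold higher in ML (adjusted p = 0.000562), at means of 0.844 and 1.02 CPM. Of its exon bases 68.7% are shared with another gene model on the same strand, so its counts are uncertain.

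Itgb2, the gene of the beta 2 partner, ran in the opposite direction without being called by edgeR, at means of 0.509, 0.0405 and 0.0496 CPM (log2 difference -3.56, SE 1.59, adjusted p = 0.119 at the first step). By limma voom Itgb2 was called lower at the first step (-3.91, adjusted p = 0.0398) and in ML against HR- LP (-4.06, adjusted p = 0.0492). The 13 leukocyte markers summed to 11.2 to 14.8 CPM in HR- LP, 5.03 to 7.42 CPM in HR+ LP and 3.55 to 4.07 CPM in ML. Their sum rested on Cd68, a lysosomal gene high in macrophages, at 10.2, 4.82 and 2.38 CPM on average, which was the only 1 of 8 tested leukocyte markers called. The part of leukocytes in the Itgal and Itgam results was not tested. The T cell gene Cd3e had no count in HR+ LP and ML. Itgb7, another leukocyte subunit, stood at 1.11, 1.81 and 1.29 CPM, then 0.133, 0.638 and 0.274 CPM, then 0.301, 0.149 and 0.0706 CPM, with HR- LP above all other libraries. Itgb7 fell by 3.03 in ML against HR- LP (SE 0.93, adjusted p = 0.0218), a call lost without HR- LP replicate 2 (adjusted p = 0.0544), ML replicate 2 (0.0773) or ML replicate 3 (0.081). The part of other cell types in the Itgb7 result was not tested. Itgb2l averaged 2.38, 0.872 and 0.596 CPM and Itgae 0.0572, 0.274 and 0.418 CPM, and neither was called. Without HR- LP replicate 1, Itgb2l was called lower at the first step (adjusted p = 0.0318) and in ML against HR- LP (0.00794), and Itgae was called higher in the latter (0.0374). Itga2b, the platelet alpha IIb gene, averaged 13.5, 11.7 and 15.5 CPM and was not called, beside a sum of 6 platelet markers of 1.23 to 4.69 CPM.

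The laminin genes divided by chain. Lama5, which encodes the alpha 5 chain of laminins 511 and 521, was the most abundant laminin alpha gene per kilobase in every library. It stood at 201, 437 and 608 CPM in HR- LP, 1028, 1571 and 1182 CPM in HR+ LP and 1411, 2013 and 1527 CPM in ML. HR- LP lay below all other libraries, and HR+ LP and ML overlapped. Lama5 rose by 1.60 (SE 0.34, adjusted p = 0.00484), and the difference of 0.39 in ML over HR+ LP was not called (SE 0.33, adjusted p = 0.793). In ML over HR- LP Lama5 rose by 1.99 (SE 0.34, adjusted p = 0.000704).

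The genes of 3 other alpha chains fell. Lama3, of the alpha 3 chain of laminin 332, stood at 50.6, 164 and 149.9 CPM in HR- LP, 40.6, 52.4 and 65.4 CPM in HR+ LP and 5.46, 2.79 and 2.38 CPM in ML. HR- LP replicate 1 lay within the range of HR+ LP, and ML lay far below both. Lama3 fell from HR+ LP to ML by 3.92 (SE 0.46, adjusted p = 0.000187), a call kept in every alternative, and fell by 5.12 (SE 0.49, adjusted p = 8.66e-06) in ML against HR- LP. Its first step, a fall of 1.20 (SE 0.41, adjusted p = 0.046), was at the threshold and was lost in 10 of 17 alternatives. Those that leave out a library were HR- LP replicate 2 or 3, any HR+ LP replicate and ML replicate 2 or 3, with adjusted p values of 0.0506 to 0.155.

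Lama4 encodes the alpha 4 chain of laminin 411, a laminin known from vessels and mesenchymal tissue. It stood at 33.9, 43.4 and 53.5 CPM, then 14.5, 14.6 and 14.2 CPM, then 0.134, 0.532 and 1.15 CPM, with all populations apart. Lama4 fell by 1.60 (SE 0.38, adjusted p = 0.00873) and then by 4.51 (SE 0.46, adjusted p = 5.77e-05), and fell by 6.10 (SE 0.48, adjusted p = 2.14e-06) between the ends. Of 8 fibroblast and pericyte markers, 5 fell and 1 rose (Dcn) at the first step, and 1 fell at the second (Pdgfra). Of all tested genes 12.8% fell and 17.2% rose at the first step, and 6.70% fell at the second. The sums of these markers were 74.4 to 122, 62.0 to 268 and 107 to 318 CPM, with the collagen gene Col3a1 at 38.7, 5.82 and 12.1 CPM and the proteoglycan gene Dcn at 8.94, 129 and 153 CPM on average. Replicate 1 was the highest for Dcn in HR+ LP (252, 49.9 and 83.3 CPM) and in ML (299.8, 72.7 and 85.5 CPM). The part of fibroblasts and pericytes in the Lama4 result was not tested. Lama1, the alpha chain gene of laminin 111, stood at 0.787, 1.35 and 2.90 CPM in HR- LP, 0.906, 1.20 and 0.657 CPM in HR+ LP and 0, 0.234 and 0.141 CPM in ML. The ML libraries lay below all others, and Lama1 fell by 3.66 (SE 1.03, adjusted p = 0.0137) in ML against HR- LP. Lama2 did not exceed 1.74 CPM in any library and was not called.

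**Figure D3:**
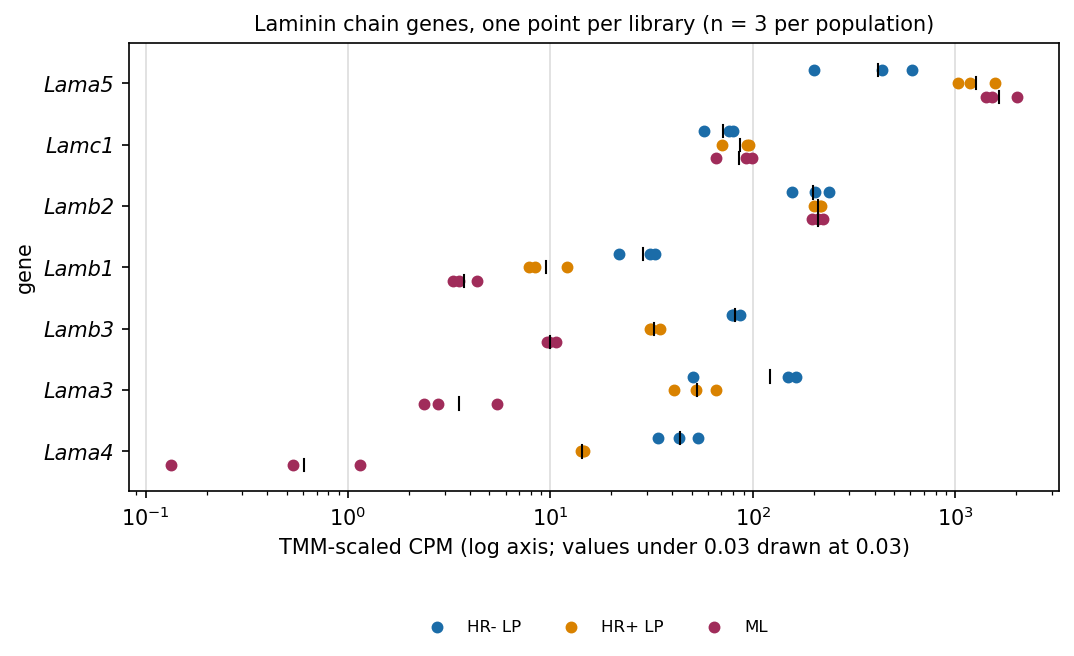
TMM-scaled CPM on a log axis of 7 laminin genes whose highest population mean was at least 5 CPM, with one point per library, 3 libraries per population and a black tick at each mean, ordered by the ratio of ML to HR- LP. Lama5 lies higher in both other populations than in HR- LP, Lamc1 and Lamb2 overlap, and Lamb1, Lamb3, Lama3 and Lama4 lie lowest in ML.

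Among the beta chain genes, 2 fell and 1 was not called. Lamb3, of the beta 3 chain found in laminin 332, stood at 79.0, 80.1 and 86.3 CPM, then 31.5, 31.1 and 34.8 CPM, then 9.58, 9.89 and 10.6 CPM. The libraries of each population were close together and the populations did not overlap. Lamb3 fell by 1.33 (SE 0.12, adjusted p = 2.62e-05) and by 1.69 (SE 0.13, adjusted p = 6.33e-06), calls kept in every alternative, and by 3.03 (SE 0.13, adjusted p = 4.56e-08) between the ends. Lamb1, of the beta 1 chain of laminins 111, 411 and 511, stood at 21.9, 31.1 and 33.0 CPM, then 7.88, 8.39 and 12.1 CPM, then 3.55, 3.30 and 4.36 CPM. Its populations were apart as well, with falls of 1.60 (SE 0.24, adjusted p = 0.000625) and 1.34 (SE 0.24, adjusted p = 0.00464), and of 2.94 (SE 0.26, adjusted p = 4.20e-06) between the ends. Lamb2, of the beta 2 chain of laminin 521, ranged from 156 to 238, 201 to 218 and 197 to 222 CPM, with log2 differences of 0.09 (SE 0.15) and -0.01 (SE 0.15) that were not called. Its share of the summed level per kilobase of the beta chain genes was 58.1% ± 4.23, 79.6% ± 1.16 and 92.2% ± 0.884 (SD, n = 3).

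Lamc1, on chromosome 1 (153218922 to 153332786 in mm10), encodes the gamma 1 chain of most laminins. It ranged from 57.1 to 79.5, 70.4 to 96.2 and 66.0 to 98.5 CPM and was not called in any comparison.

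Per kilobase, the ratio of Lama5 to Lamc1 averaged 3.77 ± 1.39, 9.86 ± 2.34 and 13.1 ± 2.70 (SD, n = 3), with HR- LP below all other libraries. Lama5 alone made up 64.6% ± 4.06 of the alpha chain level per kilobase in HR- LP, 93.4% ± 1.30 in HR+ LP and 99.6% ± 0.157 in ML. Lama3 made up 20.6% ± 4.45, 4.38% ± 1.11 and 0.249% ± 0.152, and Lama4 14.3% ± 4.76, 2.07% ± 0.413 and 0.0697% ± 0.0644.

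**Figure D4:**
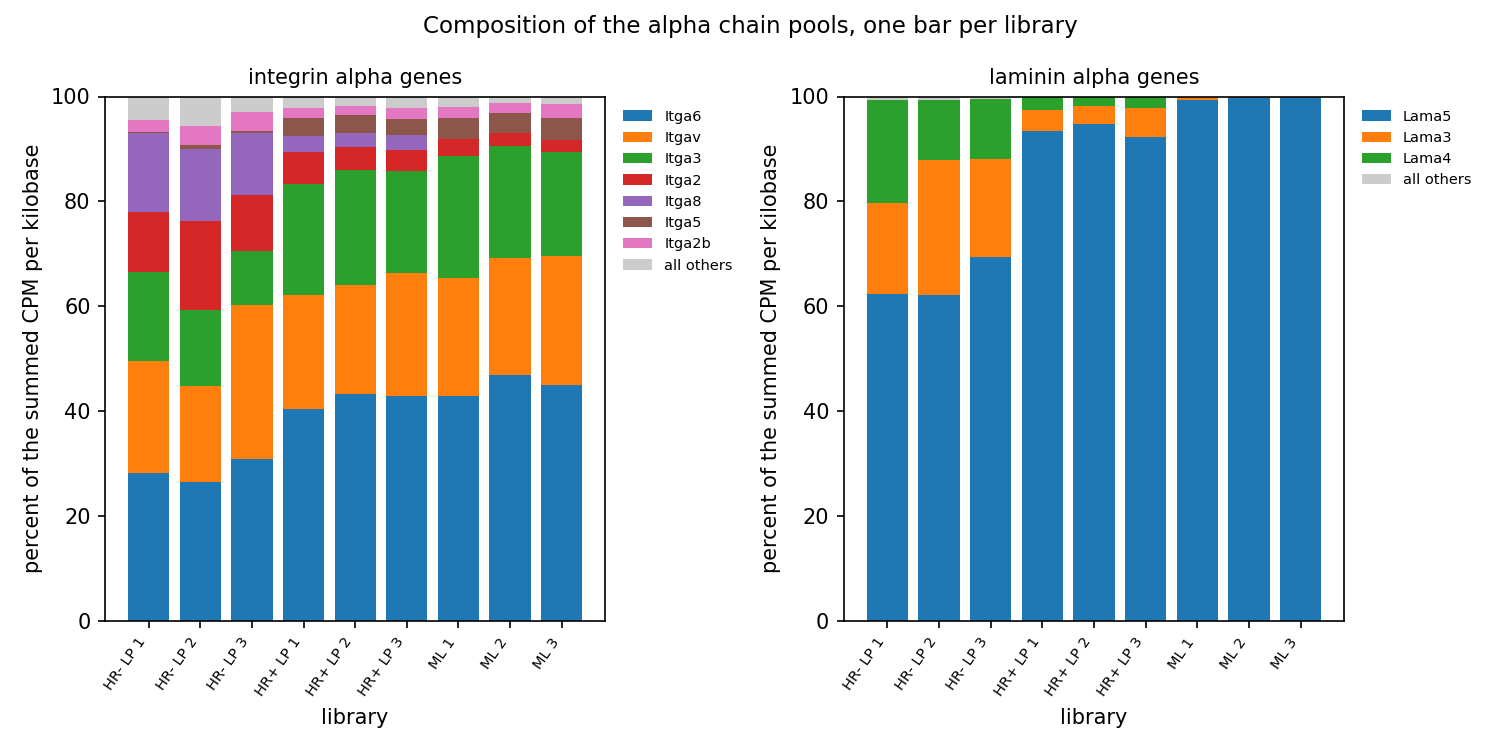
Share of each gene in the summed CPM per kilobase of the integrin alpha genes (left) and laminin alpha genes (right), as stacked bars with one bar per library, where genes that never reach 3% are drawn together as all others. Itga6 takes 26.4% to 30.8% of the bar in HR- LP and 40.4% to 46.8% in the other libraries, and Lama5 takes 62.2% to 69.3% and 92.2% to 99.7%.

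Most basal and myoepithelial markers were not called. Of these 12 markers 3 fell at the first step (Krt14, Krt17 and Tagln) and 1 at the second (Oxtr). In ML against HR- LP these 4 fell and 1 rose (Krt5). The falls are 25.0%, 8.33% and 33.3% of the list, beside 12.8%, 6.70% and 21.3% of all tested genes. Their part in the falls of Lama3, Lamb3, Itga8 and the others was not tested. Krt14 averaged 14.3, 4.22 and 4.18 CPM, Krt17 8.06, 3.23 and 1.84 CPM, Tagln 22.1, 12.5 and 9.65 CPM and Oxtr 15.3, 4.52 and 0.293 CPM. The basal genes Krt5 (2.25, 4.76 and 6.36 CPM) and Trp63 (0.683, 1.02 and 1.07 CPM) did not follow them. In all these results of sorted pools, fewer cells with a transcript and less of it per cell cannot be told apart.

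Among genes that act with integrins inside the cell, more were called lower than higher. Of 26 tested genes of the adhesion machinery 4 rose and 9 fell at the first step, 0 rose and 3 fell at the second, and 5 rose and 12 fell between the ends. These are rises of 15.4%, 0% and 19.2% of the list, beside 17.2%, 0.0943% and 23.3% of all tested genes, and falls of 34.6%, 11.5% and 46.2%, beside 12.8%, 6.70% and 21.3%. The median log2 fold change was -0.31, -0.17 and -0.38. Fermt1, the gene of the epithelial kindlin that activates integrins, rose from 21.5, 22.2 and 23.9 CPM in HR- LP to 99.9, 89.5 and 58.3 CPM in HR+ LP (log2 fold change 1.88, SE 0.24, adjusted p = 0.000207). Its relative Fermt2 fell by 0.54 (SE 0.13, adjusted p = 0.00843). Tln2, one of the talin genes, whose products link integrins to actin, averaged 206, 89.7 and 25.4 CPM and fell by 1.20 (SE 0.27, adjusted p = 0.00664) and 1.82 (SE 0.27, adjusted p = 0.00123), while Tln1 averaged 282, 246 and 224 CPM and was not called. Parva and Lims1, whose products form a complex with integrin-linked kinase, fell at the first step by 0.66 (SE 0.13, adjusted p = 0.00377) and 0.59 (SE 0.13, adjusted p = 0.006). Fermt2 and Tln1 are named beside their relatives after their values were seen.

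Of the partners of the laminin receptors some rose and some fell. Of 10 genes 3 rose and 3 fell at the first step, at the second 0 rose and 2 fell, and between the ends 4 rose and 3 fell, with medians of 0.10, 0.10 and 0.43. Over all tested genes 17.2% rose and 12.8% fell at the first step, 0.0943% and 6.70% at the second, and 23.3% and 21.3% between the ends, and with 10 genes each gene is a large share of this list. Plec and Dst encode plectin and dystonin, which tie the alpha 6 beta 4 integrin to keratin filaments. Plec stood at 114, 279.9 and 348 CPM in HR- LP, 611, 756 and 1089 CPM in HR+ LP and 919.6, 930.2 and 1541 CPM in ML, and rose by 1.73 (SE 0.38, adjusted p = 0.00602). Dst rose by 1.22 (SE 0.33, adjusted p = 0.0186), and Cd151, a tetraspanin that binds the laminin receptors, rose by 0.62 (SE 0.13, adjusted p = 0.0041). Col17a1, the transmembrane collagen of epidermal hemidesmosomes, averaged 0.600, 0.424 and 1.76 CPM and was not called. Bcam, a receptor of the laminin alpha 5 chain, averaged 397, 186 and 95.7 CPM and fell by 1.10 (SE 0.16, adjusted p = 0.000593) and 0.96 (SE 0.16, adjusted p = 0.00298), so it ran against Lama5. The tetraspanin gene Cd81 fell by 1.36 (SE 0.19, adjusted p = 0.000412) and the syndecan gene Sdc4 by 0.93 (SE 0.18, adjusted p = 0.00284) at the first step.

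Among basement membrane genes beside the laminins, more fell than rose. Of 19 tested genes 2 rose and 7 fell at the first step, 0 rose and 5 fell at the second and 2 rose and 11 fell between the ends, with medians of -0.68, -0.56 and -1.13. The falls are 36.8%, 26.3% and 57.9% of the list, beside 12.8%, 6.70% and 21.3% of all tested genes, and the rises 10.5%, 0% and 10.5%, beside 17.2%, 0.0943% and 23.3%. Col4a1 and Col4a2, which encode the common collagen IV chains, averaged 51.3, 16.5 and 5.53 CPM and 21.7, 7.03 and 2.07 CPM, and fell at the first step by 1.63 (SE 0.25, adjusted p = 0.000682) and 1.62 (SE 0.36, adjusted p = 0.00617). Col4a5 and Col4a6, of other collagen IV chains, stood higher, at 250.1, 200.5 and 182 CPM and 248, 155 and 104 CPM on average. At the first step Col4a5 was not called (-0.32, SE 0.14, adjusted p = 0.124) and Col4a6 fell by 0.68 (SE 0.15, adjusted p = 0.00683). Between the ends they fell by 0.46 (SE 0.15, adjusted p = 0.0245) and 1.25 (SE 0.16, adjusted p = 6.48e-05). Both are named after their values were seen. At the first step the laminin-binding netrin gene Ntn4 fell by 1.36 (SE 0.16, adjusted p = 0.000146) and the heparan sulfate proteoglycan gene Agrn by 0.78 (SE 0.15, adjusted p = 0.00306). Nid1, whose product links laminin to collagen IV, averaged 4.02, 5.21 and 8.85 CPM and was not called. Besides Npnt, the anchoring fibril collagen gene Col7a1 rose, by 1.28 (SE 0.33, adjusted p = 0.0144).

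More genes of other integrin ligands and of latent TGF-beta fell than rose. Of 21 tested genes 2 rose and 10 fell at the first step, 0 rose and 10 fell at the second and 2 rose and 14 fell between the ends, with medians of -1.31, -0.64 and -2.27. Of the list 47.6%, 47.6% and 66.7% fell and 9.52%, 0% and 9.52% rose, beside the same shares of all tested genes as above. Ltbp2 and Ltbp1, whose products bind latent TGF-beta or the matrix around it, fell from HR+ LP to ML by 3.11 (SE 0.15, adjusted p = 5.69e-07) and 2.81 (SE 0.22, adjusted p = 7.91e-06). Mfge8, the gene of a secreted milk fat protein that binds alpha v integrins, averaged 4930.5, 1575 and 121 CPM and fell by 1.65 (SE 0.29, adjusted p = 0.00155) and 3.70 (SE 0.31, adjusted p = 1.38e-05). Thbs1, the thrombospondin 1 gene, averaged 1141, 409 and 20.1 CPM and fell at the second step by 4.35 (SE 0.42, adjusted p = 3.61e-05). Tgfb1 was one of the 2 that rose, from 9.97, 12.6 and 8.09 CPM in HR- LP to 61.1, 60.2 and 43.0 CPM in HR+ LP, by 2.42 (SE 0.21, adjusted p = 1.63e-05), and Icam1, a ligand of the leukocyte integrins, was the other. Tgfb2 and Tgfb3 ran the other way, at 29.4, 7.90 and 0.345 CPM and 350.4, 143 and 44.3 CPM on average. At the first step they fell by 1.89 (SE 0.41, adjusted p = 0.00529) and 1.29 (SE 0.35, adjusted p = 0.0168), and both fell again at the second. They are named beside Tgfb1 after their values were seen. Fn1, the fibronectin gene, averaged 10.2, 2.52 and 3.85 CPM and fell by 2.02 (SE 0.45, adjusted p = 0.00679) at the first step, where its receptor gene Itga5 rose. Its HR- LP libraries stood at 4.90, 8.70 and 17.1 CPM, and the part of fibroblasts and pericytes in the Fn1 result was not tested.

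For the 0 genes of these lists called higher from HR+ LP to ML by edgeR, an unadjusted p under 0.05 held for 1 gene of the adhesion machinery (Fermt1), 0 partners of the laminin receptors, 1 basement membrane gene (Col7a1) and 0 other ligands. DESeq2 and limma voom called 0 in each of these lists.

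By the order of their means, 15 of the 34 tested members were lower at each step and 11 were higher at each step, 2 were highest and 6 lowest in HR+ LP, whether or not the differences were called. The same orders were not counted over all tested genes, so these numbers do not show a trait of the members. Of the 44 calls of a member in a comparison, 34 held in each of 17 alternative analyses and 10 were lost in at least 1. Counts per gene do not separate isoforms, such as the long and short forms of Lama3, and the library kit does not mark strand.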

How the data were processed

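Total RNA of 9 libraries had been prepared with a kit that does not mark strand, per the labels' protocols. The files deposited by the authors hold unnormalized read counts by gene, made with featureCounts on mm10 per the submitters' processing notes, with a gene length per row. Aligner and annotation are not given in the sources used here. The table of the series and the files of single samples differed in 0 cells. Of 27179 NCBI gene IDs, 25275 matched a RefSeq symbol.

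Genes were filtered with filterByExpr (15910 kept), scaled by TMM and tested with edgeR's quasi-likelihood F test on all 9 libraries without a covariate. Benjamini-Hochberg adjustment ran over all tested genes, with calls at 0.05. The SE is the absolute log2 fold change divided by the root of F. The procedure was tested on simulated data, drawn with the same spread of a gene in each population. Among the real libraries the lowest correlation of replicates was 0.928 in HR- LP, 0.966 in HR+ LP and 0.958 in ML. The simulation does not cover such a difference. The labels do not say that replicates were separate animals, so p-values measure the spread between these libraries. Deviations from the group means of equally numbered HR+ LP and ML libraries had correlations of 0.18, 0.12 and 0.19. Those of HR+ LP and HR- LP were 0.04 to 0.15, and those of ML and HR- LP 0.03 to 0.08. All are low, and values for unequally numbered libraries are not given, so these do not settle whether libraries are paired.

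Every member called in any comparison is named with its values in every library (as counts where a group has almost none), except one that is counted but not reported by name here, and from each further list up to 4 tested genes with the smallest p and the genes that define it. Members, lists and rules were chosen with earlier results of these data known. Alternatives were DESeq2, limma voom, RLE factors, library totals, other count filters, only the groups compared, a replicate block and leaving out each library. Promoter sequences and motif searches used RefSeq's GRCm38.p6 windows, and shared exons were read from GENCODE. Protein sequences were not used here. Fits ran in R 4.3.3 (edgeR 4.0.16; limma 3.58.1 and DESeq2 1.42.0 for alternatives), figures in matplotlib 3.10.9 under Python 3.11.15.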

Additional observations from a re-analysis of the deposited data

How the results depend on the processing

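No member changed the direction of a call under any of 17 alternatives. Members called higher in ML against HR+ LP numbered 1 instead of 0 when only those groups were fitted (Itga5). Leaving out each library in turn, the members called higher and lower ranged from 6 to 8 and 6 to 10 in HR+ LP against HR- LP, were 0 and 8 to 9 in ML against HR+ LP, and ranged from 7 to 8 and 10 to 12 in ML against HR- LP. Over all tested genes they ranged from 1982 to 3222 and 1211 to 2290 in the first of these comparisons. In the second they ranged from 4 to 63 and 802 to 1175, and in the third from 2835 to 4073 and 2798 to 3585. With the replicate number as a block the member counts were 9 and 8, 0 and 8, and 9 and 12. Over all tested genes the block gave 3068 and 2395, 71 and 1253, and 4019 and 3590. The block lost the first step of Lama3 (adjusted p = 0.0592), added the first step of Itgb4 (0.0454) and of Itgav (0.0357) and Itgav in ML against HR- LP (0.00306), and changed no other call of a member. No member call in ML against HR+ LP changed with the block.

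Counts over all genes moved as well. Genes higher in ML than in HR+ LP numbered 15 by edgeR, 88 by DESeq2, 50 by limma voom, 30 with library totals, 71 with the replicate block and 216 with only those groups, where the share of higher calls went from 1.39% to 14.7%. It was 63 and 36 without HR- LP replicates 1 and 3, 5, 4 and 5 without HR+ LP replicates 1, 2 and 3, and 8, 6 and 8 without ML replicates 1, 2 and 3. Genes lower in HR+ LP than in HR- LP numbered 2033, and 1329 and 1211 without HR+ LP replicates 1 and 2. With library totals alone the median log2 fold change of all genes moved from 0.01 to 0.12 in that comparison and from 0.03 to 0.19 in ML against HR- LP, the share of higher calls in the first went from 57.3% to 67.5%, and members called there were 8 higher and 8 lower. By limma voom the falls of Lamb1 and Itga9 from HR+ LP to ML were not called (adjusted p = 0.0632 and 0.0503). Members under about 1 CPM, such as Itgam, Itgb2 and Itgae, rest on few counts, and there depth limits what can be detected.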
